A study of Mus musculus with 6 samples.

Results

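Nitric oxide (NO) and cGMP signalling is described here by 10 genes. They were chosen by name and not by their values, though earlier results of these data were known. They include the NO synthases Nos3, Nos2 and Nos1 and the regulators Nostrin, Ddah1 and Ddah2. The others are the soluble guanylate cyclase subunits Gucy1a1 and Gucy1b1, and the cGMP phosphodiesterases Pde5a and Pde2a. Each of the 10 was found on the array by 1 probeset that lists it alone, out of 19938 genes so found. RNA came from 3 samples of glomerular endothelial cells (GEC) from diabetic mice, labelled Tie2-GFP with DB/DB, and from 3 samples of normal mice, labelled Tie2-GFP with +/+, all 7 months old. In db/db mice the leptin receptor is defective, which leads to obesity and type 2 diabetes. Both groups carried Tie2-GFP, a transgene that marks endothelial cells with green fluorescence under the Tie2 promoter, which some blood cells also use. GFP positive cells were sorted from sieved glomeruli, and each sample was hybridised to its own Affymetrix mouse gene array. The labels call the samples biological replicates and give neither strain nor sex, nor whether animals were pooled, so p-values measure only the spread between these samples.

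Endothelial NO synthase makes NO from arginine. NO passes to neighbouring smooth muscle and mesangial cells, or acts in the same cell, and switches on soluble guanylate cyclase, which makes cGMP. The cGMP acts through protein kinase G and ion channels until phosphodiesterases degrade it or transporters export it. Methylated arginines, above all asymmetric dimethylarginine (ADMA), block the synthases and are broken down by the DDAH enzymes. In the kidney this pathway sets the tone of the glomerular arterioles, and loss of endothelial NO is a feature of diabetic vascular disease.

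Values are log2 probeset signal as deposited, and changes are db/db minus normal on the same scale. They compare a gene between arrays and not genes with each other. Sums of linear signal over marker genes weight each gene by its probeset level, and they too are compared only between arrays. Probesets were tested where the linear signal was at least 100 in 3 or more of the 6 arrays, which left 20661 probesets and 8 of the 10 genes. The array medians lay between 7.00 and 7.04, the arrays correlated with r of 0.924 to 0.953 over the tested probesets, and all 11 endothelial markers were tested, among them Emcn, a surface sialomucin, at 13.63 ± 0.04 in db/db and 13.59 ± 0.02 in normal (mean ± SD, n = 3 per group). Of these markers 1 was lower in db/db at an unadjusted p under 0.05, Tek, whose promoter drives the transgene (-0.33 ± 0.12, SE), and 1 was higher, the junction protein gene Cdh5 (0.21 ± 0.08), named after its values were seen. Without overlap 5 of the 11 were higher and 3 lower. Among all tested probesets 7.01% were higher and 5.31% lower without overlap. At an unadjusted p under 0.05 by limma, 3.48% of all tested probesets were higher and 2.91% lower. The 11 markers summed to 62800 to 65100 in db/db and 62900 to 63600 in normal arrays. The number of arrays limits the precision.

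Pde5a had the lowest p of the tested genes and a lower signal in db/db GEC, but it reached the level for testing in 3 normal arrays and 1 db/db array, so it entered the test through the group where it is high. Nos2 had a higher signal in db/db that did not pass the test, and the db/db and normal arrays of the other 6 tested genes overlapped. With limma, 0 of the 8 tested genes passed at an adjusted p of 0.05, as did 0 of all 20661 probesets (0%), so no gene here is reported as changed. At an unadjusted p under 0.05, 1 of the 8, Pde5a, was lower in db/db, against 2.91% of all probesets, and 0 were higher, against 3.48%. The adjusted p of the 8 genes lay between 0.513 and 0.969. The groups did not overlap in 1 gene that was higher in db/db, Nos2, and in 1 that was lower, Pde5a. Over all probesets 7.01% were higher and 5.31% lower without overlap. The median change of the 8 genes was 0.04, against 0.01 over all tested probesets, and 5 of them had a higher and 3 a lower mean in db/db.

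**Figure D1:**
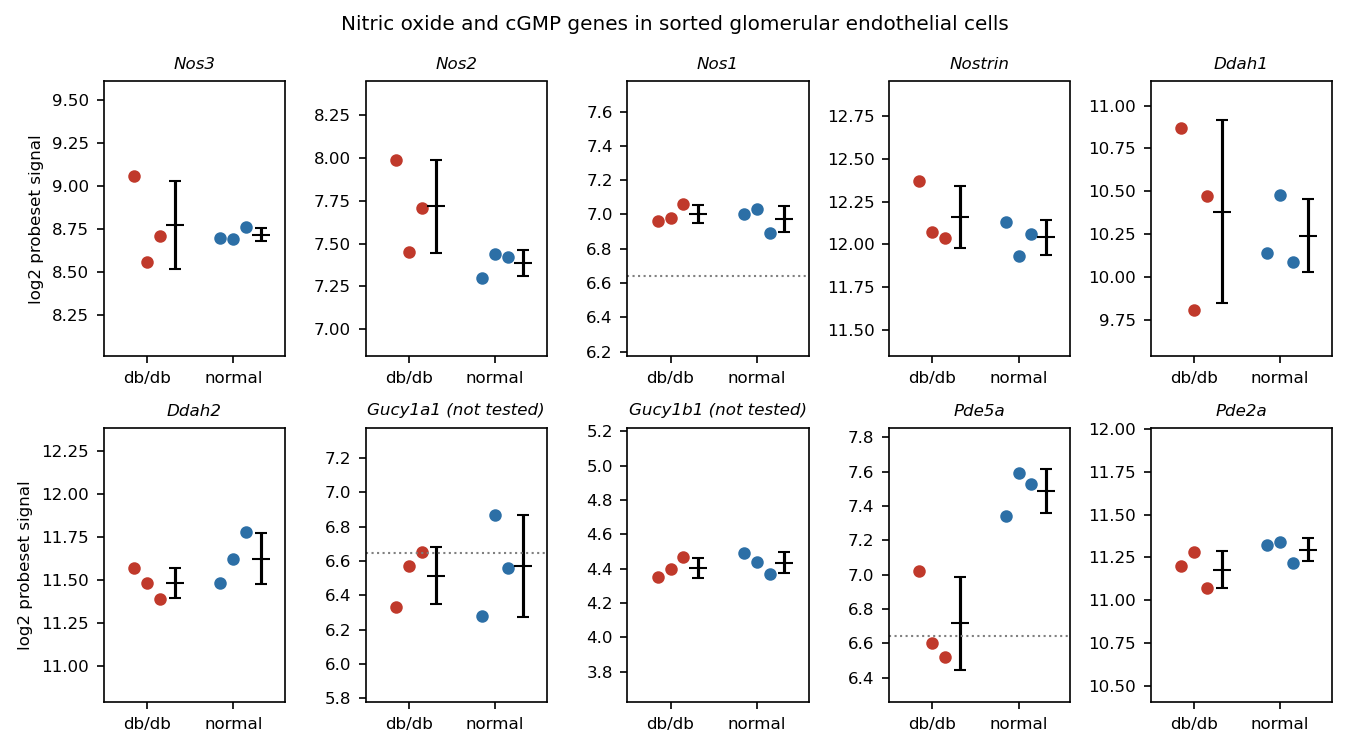
Log2 probeset signal of the 10 genes in each array (points, replicates 1 to 3 from left to right) of db/db and normal GEC, with mean and SD of 3 arrays (bars); each panel spans 1.6 log2 units, and the dotted line is the linear level of 100 where it falls in the panel. Pde5a is the gene whose db/db arrays, at 6.52 to 7.02, all lie below its normal arrays, at 7.34 to 7.59.

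Pde5a encodes phosphodiesterase 5, which is specific for cGMP and is the target of sildenafil. The gene spans 122729158 to 122859374 on chromosome 3 (RefSeq, GRCm38.p6). The stretch around its annotated start is shown since Pde5a had the largest change of the 8 tested genes, which did not pass after adjustment. The stretch runs from 250 bases before the start to 50 after it at chr3:122728908-122729207, plus strand, from RefSeq, with the GC box in capitals.
Pde5a: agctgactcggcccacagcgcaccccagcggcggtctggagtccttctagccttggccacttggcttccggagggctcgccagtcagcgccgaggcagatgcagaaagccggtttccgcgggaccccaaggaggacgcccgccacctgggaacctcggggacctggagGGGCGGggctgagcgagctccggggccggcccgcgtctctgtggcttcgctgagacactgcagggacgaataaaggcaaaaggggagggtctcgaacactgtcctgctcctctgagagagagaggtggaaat
The GC box, GGGCGG on either strand, occurred 1 time in this window, and 35.7% of 32851 annotated promoter windows of this length hold it. The cAMP response element TGACGTCA and the TATA box TATAAA, searched on both strands, did not occur in it, against 1.79% and 13.6% of the windows. No array value bears on these letters directly.

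Pde5a signal was 7.02, 6.60 and 6.52 in db/db arrays, against 7.34, 7.59 and 7.53 in normal arrays. Every db/db array was lower than every normal array, with a gap of 0.317 between the highest db/db and the lowest normal value. The change was -0.77 ± 0.16 (SE), a 1.71-fold lower signal, with a 95% interval of -1.17 to -0.38. Limma gave an unadjusted p of 0.00335, rank 134 of 20661 probesets, and an adjusted p of 0.513, so the difference did not pass. On the linear scale the signal was 130, 96.9 and 92.1 in db/db and 162, 193 and 185 in normal arrays. The gene therefore reached the level of 100 in 1 db/db and 3 normal arrays and was kept for the test through the normal group. At a level of 200 it was not tested.

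Phosphodiesterase 5 is a gene of smooth muscle and mesangial cells as well, and a change in bulk RNA cannot tell fewer cells of a type from less RNA per cell. The marker list of mesangial cells, pericytes and smooth muscle had 14 genes on the array. Its members summed to a linear signal of 1870 to 2010 in db/db and 1750 to 1870 in normal arrays. Of 7 tested members 6 had a higher and 1 a lower mean in db/db, and 0 had a p under 0.05. Of the 14, 5 lay below the level in every array (Pdgfrb, Itga8, Cnn1, Des and Rgs5, all of them named after their values were seen), and 7 were tested. Cspg4, a proteoglycan of pericytes with the lowest p of the list, was at 6.63, 6.67 and 6.68 in db/db and 6.81, 6.88 and 6.64 in normal arrays, a change of -0.12 ± 0.09 in the direction of Pde5a. Meis1, a transcription factor of mesangial cells, was at 8.93 ± 0.13 in db/db and 8.64 ± 0.61 in normal (mean ± SD, n = 3 per group). The part of RNA from these cells in the Pde5a difference was not tested.

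Podocyte markers lay in both directions. Their sum over 6 genes was 4390 to 4460 in db/db and 4900 to 5870 in normal arrays, without overlap, and the median change of the 5 tested was 0.06. Of the 5 tested 2 were lower in db/db at an unadjusted p under 0.05, against 2.91% of all tested probesets. They were Podxl (-0.27 ± 0.10) and Cdkn1c (-0.40 ± 0.12), and 3 had a higher mean. These 3, named after their values were seen, were Nphs1 (0.06 ± 0.11), Wt1 (0.08 ± 0.07) and Synpo (0.24 ± 0.16). Podxl, an anionic sialoprotein, is made by endothelial cells too and carries most of the sum. The part of podocyte RNA in the Pde5a difference was not tested. The 6 proximal tubule genes summed to 1400 to 1650 in db/db and 1650 to 1680 in normal arrays, with changes of -0.20 ± 0.14 for Aqp1, a water channel that endothelium also makes, and 0.16 ± 0.09 for Slc22a6. Alas2, an enzyme of haem synthesis in red cells, had a change of -0.10 ± 0.12.

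**Figure D2:**
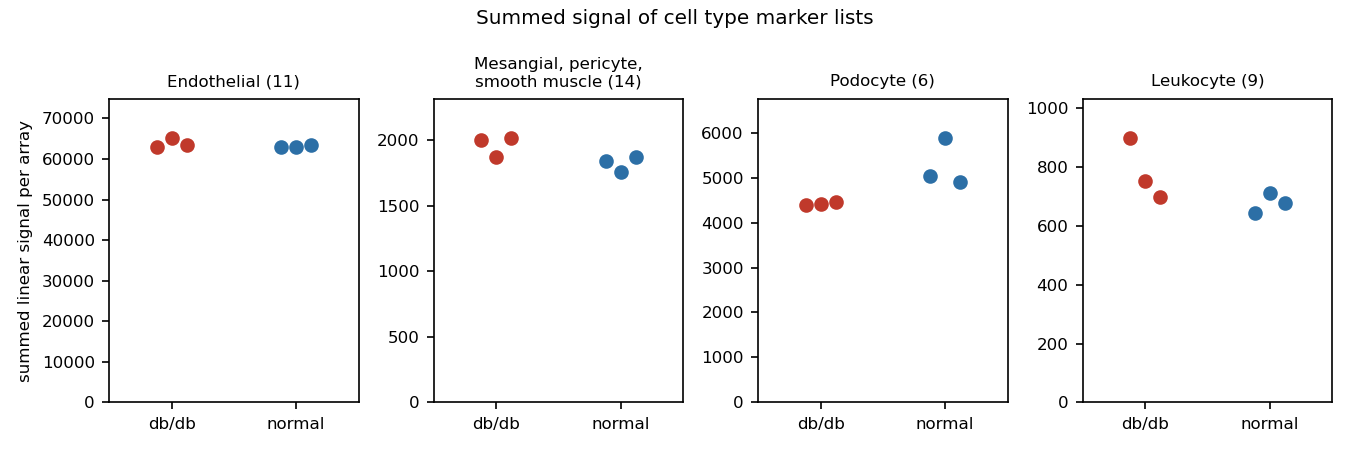
Linear signal summed over the marker genes of a cell type in each array (points) of db/db and normal GEC, with the number of genes on the array in parentheses and axes that start at 0. The podocyte sums of 4390 to 4460 in db/db lie below those of 4900 to 5870 in normal GEC, and the smooth muscle sums do not. Podxl, which endothelial cells make too, carries most of the podocyte sum. Of the 5 tested podocyte genes 3 had a higher and 2 a lower mean in db/db.

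Over the 6 arrays and 12763 tested genes, the pattern most like that of Pde5a by Pearson's r was Id3 (r = 0.989), which encodes an inhibitor of basic helix-loop-helix factors, followed by Snord22 (0.984), a small nucleolar RNA, and Ppp1r8 (0.983). Id3 was at 10.58, 10.46 and 10.47 in db/db and 10.65, 10.66 and 10.68 in normal arrays, a smaller difference of -0.16. These points share arrays and group, and with 6 of them many genes reach a high r.

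Pde2a encodes phosphodiesterase 2, which cGMP stimulates and which then degrades cAMP and cGMP. Its signal was 11.20, 11.28 and 11.07 in db/db, against 11.32, 11.34 and 11.22 in normal arrays. The groups overlapped slightly, db/db replicate 2 lying above normal replicate 3. The change was -0.12 ± 0.09 (SE), with a 95% interval of -0.34 to 0.11 and an adjusted p of 0.879 by limma. It was -0.06 without db/db replicate 3 and -0.16 without db/db replicate 2. The interval leaves room for a signal at 0.788-fold to 1.08-fold of normal. Pde2a lies on chromosome 7 from 101421691 to 101512829. Whether Pde5a and Pde2a differed in their changes was not tested.

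Nos3, the endothelial NO synthase, is a marker of endothelium. Its signal was 9.06, 8.56 and 8.71 in db/db, against 8.70, 8.69 and 8.76 in normal arrays. The normal arrays lay within 0.071 of each other, whereas the db/db arrays spanned 0.502, with replicate 1 above and replicate 2 below every normal array. The change was 0.06 ± 0.14 (SE), with a 95% interval of -0.30 to 0.41 (0.814-fold to 1.33-fold) and an adjusted p of 0.963 by limma. Without db/db replicate 1 the change was -0.08. Nos3 lies on chromosome 5 from 24364816 to 24384474.

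Nos2, the inducible synthase that inflammatory signals switch on in macrophages and other cells, was at 7.99, 7.45 and 7.71 in db/db, against 7.30, 7.44 and 7.42 in normal arrays. All db/db arrays lay above all normal ones, but replicate 2 did so by only 0.00959, and after quantile normalisation the groups overlapped. The change was 0.33 ± 0.15 (SE), a 1.26-fold higher signal, with a 95% interval of -0.05 to 0.70, and did not pass (unadjusted p of 0.0761, adjusted p of 0.805 by limma). Without db/db replicate 2 it was 0.46, with an unadjusted p of 0.0177 and an adjusted p of 0.755, and without db/db replicate 1 it was 0.19. At a level of 200 Nos2 was not tested. Nos2 lies on chromosome 11 from 78920787 to 78960226.

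Leukocyte markers lay in both directions. Cd68, a lysosomal protein of macrophages, was at 7.95, 7.59 and 6.91 in db/db, against 6.63, 6.72 and 6.81 in normal arrays (unadjusted p of 0.0308, adjusted p of 0.752 by limma). Lyz2, a lysozyme named after its values were seen and not tested, was at 7.41, 6.82 and 6.61 in db/db, against 6.21, 6.19 and 6.63 in normal arrays. The 9 leukocyte markers summed to 698 to 897 in db/db and 643 to 713 in normal arrays, and 6 of them, Ptprc, Adgre1, Itgam, Csf1r, Cd79a and Ly6g, all named after their values were seen, lay below 100 in every array. Their mean differences were -0.10 for Ptprc, 0.003 for Adgre1, 0.01 for Itgam, 0.07 for Csf1r, -0.33 for Cd79a and 0.06 for Ly6g. Cd3e, a T cell gene and the highest of the list, had a change of -0.11 ± 0.16. Among the db/db arrays Nos2 was highest in replicate 1 and lowest in replicate 2, and Cd68 was highest in replicate 1 and lowest in replicate 3. The part of leukocyte RNA in the Nos2 values was not tested. The genes most like Nos2 over the 6 arrays were Ubash3a (r = 0.995), a lymphocyte gene, Alpl (0.990), the tissue-nonspecific alkaline phosphatase, and Rsad2 (0.986), which interferons induce. With 6 arrays many of the 12763 genes reach a high r. Ubash3a stood close to the level for testing, 6.644 in log2. It was at 6.85, 6.71 and 6.77 in db/db and 6.64, 6.69 and 6.68 in normal arrays, a change of 0.11. Rsad2 was at 11.27, 10.76 and 11.03 in db/db and 10.54, 10.64 and 10.63 in normal arrays.

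Nos1, the neuronal synthase, is in the kidney a gene of the macula densa. Its signal was 6.96, 6.98 and 7.06 in db/db, against 7.00, 7.03 and 6.89 in normal arrays. These values stood close to the level of 100, at 118 to 134 on the linear scale, and the groups overlapped throughout. The change was 0.03 ± 0.08 (SE), with a 95% interval of -0.18 to 0.23 and an adjusted p of 0.969 by limma. Nos1 lies on chromosome 5 from 117866839 to 117958840. The macula densa and thick limb list, 5 genes on the array, summed to 425 to 562 in db/db and 356 to 405 in normal arrays, and its part in the Nos1 values was not tested. Both tested genes of the list had a higher mean in db/db. Umod, the thick limb protein uromodulin, was higher by 0.31 ± 0.13 without overlap (unadjusted p of 0.0561, adjusted p of 0.783 by limma). Among all tested probesets 7.01% were higher without overlap. Slc12a3, a salt transporter of the distal tubule, was higher by 0.19 ± 0.13. Calb1, named after its values were seen and not tested, a distal tubule calcium-binding protein, was at 5.85, 7.41 and 6.82 in db/db, against 5.34, 5.44 and 5.59 in normal arrays. Slc12a1 and Cldn16, the other untested genes of the list, also named after their values were seen, lay below the level in every array. Their mean differences went the other way, at -0.03 for Slc12a1 and -0.04 for Cldn16.

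**Figure D3:**
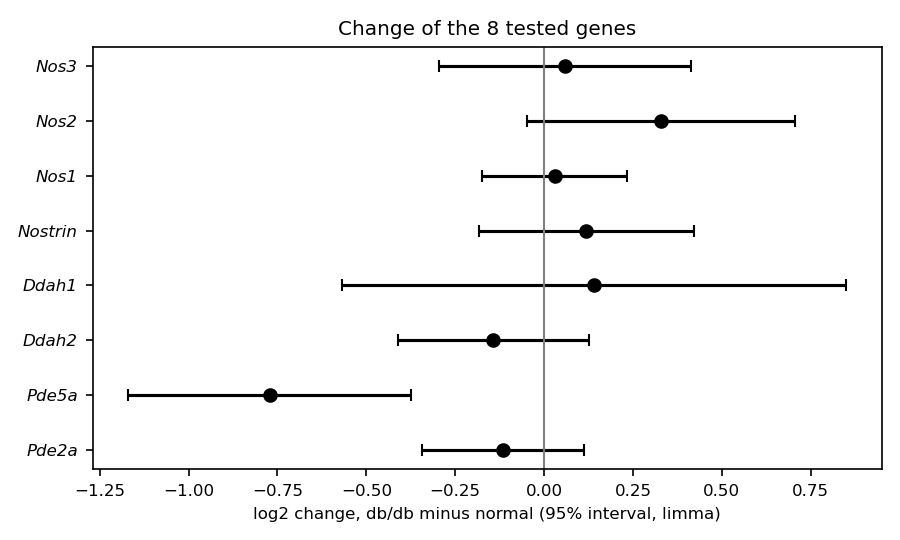
Log2 change, db/db minus normal, of the 8 tested genes (points) with 95% intervals from limma (bars). The interval of Pde5a, -1.17 to -0.38, is the only one that does not reach 0, and that of Ddah1, -0.57 to 0.85, is the widest.

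Nostrin encodes an adaptor that binds endothelial NO synthase and draws it from the plasma membrane into vesicles. Its signal was 12.37, 12.07 and 12.04 in db/db, against 12.13, 11.93 and 12.06 in normal arrays. Replicate 1 of db/db stood above all others and the remaining db/db arrays lay within the normal range. The change was 0.12 ± 0.12 (SE), with a 95% interval of -0.18 to 0.42 and an adjusted p of 0.906 by limma, and it was 0.01 without db/db replicate 1. Nostrin lies on chromosome 2 from 69135800 to 69189330.

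Ddah1 and Ddah2 encode the dimethylarginine dimethylaminohydrolases, which clear ADMA. Ddah1 was at 10.87, 9.81 and 10.47 in db/db, against 10.14, 10.48 and 10.09 in normal arrays. It was the most variable of the tested genes, with a span of 1.06 over the db/db arrays and 0.390 over the normal ones, so that the highest and the lowest of all 6 values were both from db/db. The change was 0.14 ± 0.29 (SE), with a 95% interval of -0.57 to 0.85 (0.675-fold to 1.80-fold), and an adjusted p of 0.956 by limma. These arrays therefore leave a difference of either sign possible for Ddah1. Without db/db replicate 1 its change was -0.10 and without replicate 2 it was 0.43. Ddah1 lies on chromosome 3 from 145758692 to 145894277 and Ddah2 on chromosome 17 from 35059035 to 35062099.

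Ddah2 was at 11.57, 11.48 and 11.39 in db/db, against 11.48, 11.62 and 11.78 in normal arrays. The groups overlapped, db/db replicate 1 lying above normal replicate 1. The change was -0.14 ± 0.11 (SE), with a 95% interval of -0.41 to 0.12 and an adjusted p of 0.876 by limma. It was -0.07 without normal replicate 3 and -0.22 without normal replicate 1. Ddah1 and Ddah2 thus had means of opposite sign, neither of them beyond the spread, and whether their changes differed was not tested.

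Replicate 1 of db/db was the highest of its group in 6 of the 8 tested genes, namely Nos3, Nos2, Nostrin, Ddah1, Ddah2 and Pde5a, against 35.2% of all 20661 probesets. It stood above the mean of the other db/db arrays by 0.728 for Ddah1, 0.463 for Pde5a, 0.424 for Nos3, 0.412 for Nos2 and 0.314 for Nostrin. After subtracting each group's mean, Nos3 correlated over the 6 arrays with Nos2 (r = 0.945), Nostrin (0.824), Ddah1 (0.822) and Pde5a (0.815). The r of Nos3 was lower with Ddah2 (0.435), and Pde2a (-0.222) and Nos1 (-0.374) did not follow. These correlations describe 6 arrays that share their group means and lean on 1 of them. In Pde5a the high value of replicate 1 lay toward the normal arrays, and without it the change was -0.93.

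Soluble guanylate cyclase, the receptor of NO, is a dimer of an alpha and a beta subunit whose genes are neighbours on chromosome 3 (Gucy1a1 from 82092427 to 82145946, Gucy1b1 from 82032004 to 82074711). Neither was tested. Gucy1a1 was at 6.33, 6.57 and 6.65 in db/db, against 6.28, 6.87 and 6.56 in normal arrays, and reached the level of 100 in 1 array of each group. Gucy1b1 was at 4.35, 4.40 and 4.47 in db/db, against 4.49, 4.44 and 4.37 in normal arrays. Its linear signal was 20.4 to 22.5 over the 6 arrays, far below the level. The groups overlapped for both, with mean differences of -0.06 and -0.03. A low signal of a single probeset gives no order of levels, and it does not show that the transcript is absent. Of the other subunits, named after their values were seen, Gucy1a2 and Gucy1b2 were not tested either, at 5.12 to 5.57 and 6.28 to 6.50 log2 over the 6 arrays.

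**Figure D4:**
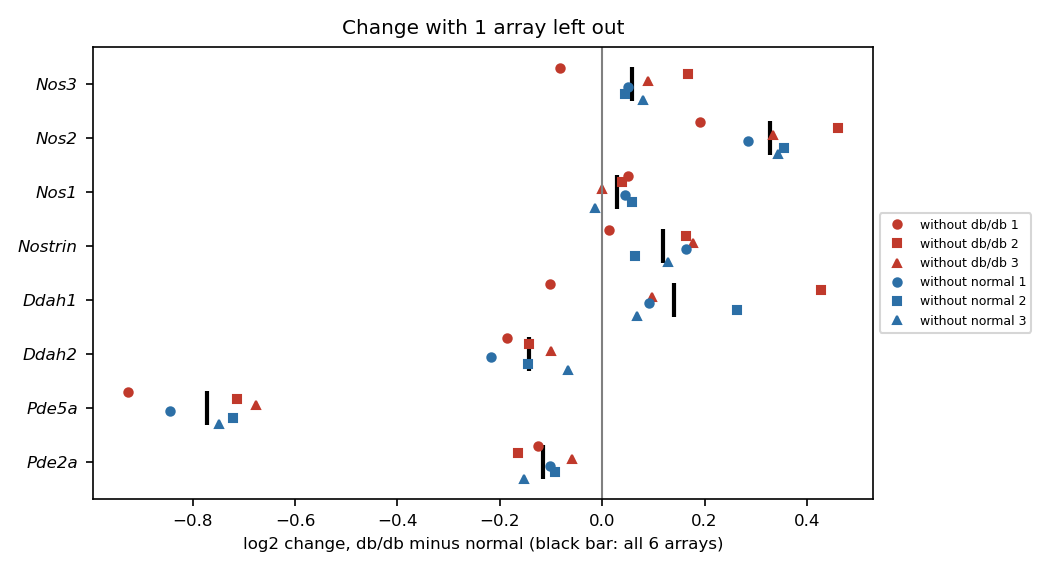
Log2 change, db/db minus normal, of the 8 tested genes with all 6 arrays (black bars) and with 1 array left out (red for a db/db array, blue for a normal one; circle, square and triangle for replicates 1, 2 and 3). Pde5a lies between -0.93 and -0.68, and Nos3, Nos1 and Ddah1 lie on both sides of 0. Pde5a reached the level for testing in 3 normal arrays and 1 db/db array, so its values here do not show a stable difference.

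The wider pathway was read from 77 further genes in lists by role, of which 71 had a probeset of their own and 44 were tested. At an unadjusted p under 0.05, 2 were higher in db/db, Abcc4 and Cygb, and 3 were lower, Prmt2, Cbr1 and Cyb5r3, that is 11.4% of the 44 in either direction against 6.57% of all 12763 genes. None passed after adjustment (smallest adjusted p of 0.376 by limma). Without overlap 2 of the 44 were higher and 5 lower, against 7.01% and 5.31% of all tested probesets. The median change of the 44 was -0.02, with 20 means higher and 24 lower in db/db.

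Abcc4 encodes a transporter that exports cyclic nucleotides, cAMP and cGMP among them. Its signal was 9.07, 9.10 and 8.89 in db/db, against 8.26, 8.0 and 8.43 in normal arrays. Every db/db array lay above every normal one, and the change was 0.79 ± 0.14 (SE), 1.73-fold, with a 95% interval of 0.46 to 1.13. Its unadjusted p of 0.0013 was the lowest among the 44 genes and the 41st lowest of 12763 genes, with an adjusted p of 0.376 by limma. The second transporter of the list, Abcc5, had a change of -0.02 ± 0.17.

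Among enzymes that make methylated arginines, Prmt2, an arginine methyltransferase, was at 7.72, 7.61 and 7.76 in db/db, against 7.92, 8.11 and 8.28 in normal arrays. Its change of -0.41 ± 0.12 (SE) separated the groups (unadjusted p of 0.0139, adjusted p of 0.675 by limma). Prmt6 lay the other way, at 0.31 ± 0.16, and overlapped. Of the 5 tested genes of this list 1 was lower at p under 0.05 and 4 did not reach it, against 6.57% of all genes in either direction.

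Of genes that remove NO or control protein S-nitrosation, 8 were tested, of which 1 was higher and 2 were lower at an unadjusted p under 0.05, against 6.57% of all genes in either direction. None of the 3 kept a p under 0.05 with the replicate number as a block. Cyb5r3, a cytochrome b5 reductase that in mouse arteries keeps endothelial alpha-globin in the form that limits NO release, was at 10.63, 10.03 and 10.31 in db/db, against 10.76, 10.97 and 10.72 in normal arrays. Its change was -0.49 ± 0.17 (SE), with a 95% interval of -0.92 to -0.06 (adjusted p of 0.752 by limma). Cbr1, a carbonyl reductase that also reduces S-nitrosoglutathione, had a change of -0.39 ± 0.12, and Cygb, cytoglobin, which converts NO to nitrate, one of 0.21 ± 0.08. Without overlap 1 of the 8 was higher and 2 were lower, the same 3 genes, against 7.01% and 5.31% of all tested probesets. The probesets of the haemoglobin genes Hba-a1, Hba-a2, Hbb-b1 and Hbb-b2 listed several genes and were not used.

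The binding partners and the supply of substrate and cofactor held no gene with p under 0.05 among 8 and 7 tested. Dynll1, a dynein light chain that binds neuronal NO synthase, had a change of -0.23 ± 0.10 and Nos1ap, its adaptor, of 0.15 ± 0.19. Pts, an enzyme of tetrahydrobiopterin synthesis, was at 10.43, 10.51 and 10.39 in db/db, against 10.65, 10.60 and 10.64 in normal arrays, a change of -0.19 ± 0.08 without overlap that did not reach a p under 0.05 (0.0533). Asl, which makes arginine, had a change of -0.18 ± 0.19. Named for their roles after their values were seen, Cav1, the caveolin that holds endothelial NO synthase inactive, had a change of 0.05 ± 0.11 and Gch1, which starts tetrahydrobiopterin synthesis, of -0.24 ± 0.24.

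Of the natriuretic peptide receptors, which make cGMP without NO, Npr2 had a change of 0.43 ± 0.19, with overlapping groups (unadjusted p of 0.0684, adjusted p of 0.795 by limma), and Npr1 of 0.08 ± 0.17. Only 3 of 10 genes of that list were tested. Among the other phosphodiesterases 5 of 14 were tested and 0 had a p under 0.05. Pde3a, which cGMP inhibits, had a change of -0.44 ± 0.31, and Pde6d, a prenyl-binding subunit with no catalytic role, one of -0.35 ± 0.14. Among the effectors 6 of 14 were tested, again with 0 at p under 0.05. Pln, phospholamban, had a change of -0.41 ± 0.24 and Ppp1r12a, a subunit of myosin phosphatase, of -0.13 ± 0.10. Prkg1, the cGMP-dependent kinase, named for its role after its values were seen, had a change of -0.10 ± 0.09, with a 95% interval of -0.33 to 0.13.

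**Figure D5:**
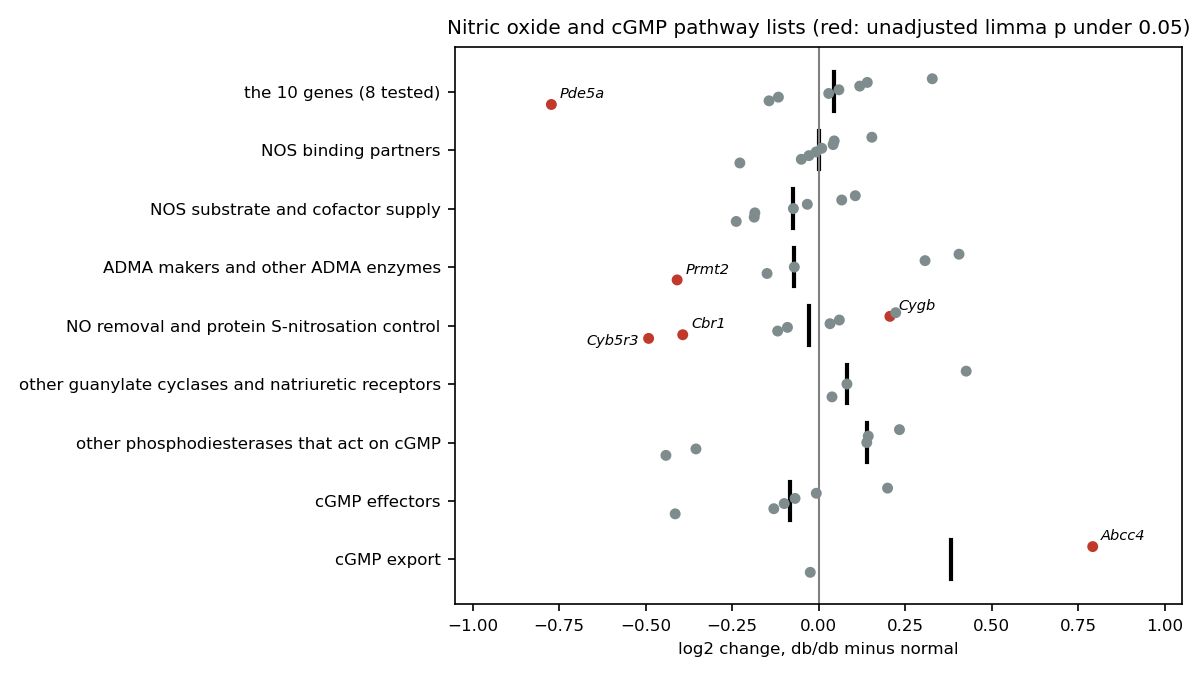
Log2 change, db/db minus normal, of each tested gene (points) of the 10 genes and of the wider pathway lists, with black bars at list medians and genes at an unadjusted limma p under 0.05 in red and named. Abcc4 at 0.79 and Pde5a at -0.77 are the farthest from 0.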

How the data were processed

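Labelled cDNA of 6 GEC samples was hybridised to Affymetrix mouse gene arrays after NuGEN amplification. The authors deposited a table of log2 signal per probeset with a column for every array. RMA in GeneSpring is what the study's methods state, whereas MAS5 is the tool in the submitters' processing notes. Values spanned 3.18 to 14.46 and the sorted arrays agreed to within 0.146, so the array distributions are nearly equal and each change is relative to the rest of its array. Of 35557 probesets 21789 list 1 gene, 1621 several and 12147 none. Groups came from the labels. Probesets with a linear signal of at least 100 in 3 arrays (20661, for 12763 genes) were fitted with limma 3.58.1 in R 4.3.3 (lmFit, eBayes, two-sided, Benjamini-Hochberg over all of them, first tested on simulated data). Errors of means are SD and those of changes are moderated SE. An exact permutation test of 3 against 3 cannot give a p below 0.1, so none was run. A gene is given by its highest-mean probeset. Named from the wider lists were the 2 lowest p of each list and all under 0.05, the 3 genes most like each of the 2 lowest-p members, and of each marker list the highest-mean and the lowest-p gene; genes outside this rule are marked as named after their values were seen. The members and lists were chosen with earlier results of these data known. Promoter sequences are from RefSeq (GRCm38.p6), which held 8 of the 10 genes. Alternatives covered normalisation, level, prior, array weights, a replicate block, the methods' t-test, which probesets entered, and each array left out. Figures used matplotlib 3.10.9 in Python 3.11.15.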

Additional observations from a re-analysis of the deposited data

How the results depend on the processing

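Across all alternatives 0 members passed after adjustment, with an adjusted p for Pde5a of 0.356 to 0.887. Of 133 member values under an alternative 129 kept their sign. The exceptions came with 1 array left out, Nos3 (-0.083, up to 0.168 in such fits) and Ddah1 (-0.10, up to 0.427) without db/db replicate 1 and Nos1 (up to 0.058) without db/db replicate 3 (-0.00109) or normal replicate 3 (-0.014). The cause was not tested. Pde5a lay between -0.93 and -0.68 in such fits, with unadjusted p of 0.000662 to 0.0138 by limma. The lowest p came without db/db replicate 1, the only db/db array in which Pde5a reached the level for testing. Its linear signal in the remaining db/db arrays was 96.9 and 92.1, below that level. That fit kept Pde5a through the normal arrays alone, so its p does not show that the difference is stable. Over all probesets 0 passed in each fit and by the methods' t-test, except 1 with 1 probeset per gene, which is no member. That t-test with its fold threshold gave 313 probesets, and 0 after adjustment. At a level of 200, where Pde5a, Nos2 and Nos1 were not tested, 0 members were lower at an unadjusted p under 0.05 or without overlap in either direction, and with quantile normalisation 0 were higher without overlap. With 1 array left out, 0 to 1 members were higher and 1 lower at p under 0.05, and 1 higher and 1 to 2 lower without overlap, the second being Pde2a without db/db replicate 2 or normal replicate 3 and Ddah2 without normal replicate 1. In the wider lists 1 to 3 genes were then higher and 2 to 4 lower. There 1 was higher with median centring or a level of 200, and 5 were lower with no level filter. Abcc4 and Prmt2 kept a p under 0.05 in every fit run, whereas Cbr1, Cyb5r3 and Cygb lost it with the replicate block. Cygb lost it also with quantile normalisation, median centring and each array left out, and at a level of 200 it was not tested. Cyb5r3 lost it with the methods' t-test and without db/db replicates 2 or 3 or normal replicates 1 or 2. Cbr1 lost it without db/db replicate 1 or normal replicate 1. The labels do not pair replicates, and deviations of same-numbered arrays correlated at -0.00385, 0.0353 and -0.0296. The replicate block gave 0 calls over all probesets and a p of 0.0161 for Pde5a. Each member had 1 probeset, so other probesets could not be compared.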
